A study of Mus musculus with 8 samples.

Results

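The RING core and variant subunits of Polycomb repressive complex 1 (PRC1) were followed here as a list of 10 genes by symbol: *Ring1*, *Rnf2*, *Rybp*, *Yaf2*, *Kdm2b*, *Pcgf1*, *Pcgf3*, *Pcgf5*, *Bcor* and *Bcorl1*. Of these, 9 had a row among the 21950 genes counted, and *Bcor* was not analysed here. The genes were compared between d6PGCLCs and E12.5 PGCs, with 4 bulk RNA-seq libraries of each. The d6PGCLCs were germ cell-like cells of a single female BVSC-iPSC line derived from tail tip fibroblasts, induced through epiblast-like cells with BMP4, SCF, LIF and EGF, taken on day 8 of culture (PGCLC day 6) and gated for the Blimp1-Venus and Stella-ECFP transgenes. The E12.5 PGCs were pooled from gonads of female C57BL/6J fetuses at that embryonic day and sorted for SSEA1 and integrin β3. Each library was 1 pool from an independent experiment. Culture, developmental stage, genetic background and sorting markers all differed between the groups, and their parts cannot be told apart.

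PRC1 is the enzyme complex that places ubiquitin on a lysine of histone H2A (H2AK119). Its catalytic core pairs a RING protein, RING1 or RNF2 (also called RING1B), with a PCGF protein. In variant complexes RYBP or YAF2 takes the place of the CBX subunit that reads methylated H3K27 in canonical complexes. The PCGF1 complex further holds KDM2B, whose CXXC zinc finger binds unmethylated CpG, and BCOR or BCORL1, while the PCGF3 and PCGF5 complexes carry other partners. In the germ line PRC1 is known for repressing developmental genes and for restraining the timing of meiotic entry.

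The counted reads ranged from 7991437 to 12024841 per library. Of the listed germ cell markers, all 9 were counted in both groups, with a summed level of 3650 to 4230 CPM in d6PGCLCs and 4270 to 4890 CPM in E12.5 PGCs (CPM, counts scaled to a common library size by TMM). By mean CPM, 5 of the 9 were higher in d6PGCLCs and 4 in E12.5 PGCs, so the sums do not compare the marker profiles. The 8 markers of gonadal somatic cells in the table were all higher in E12.5 PGCs, but summed to only 3.61 to 7.98 CPM, against 0.498 to 1.70 CPM in d6PGCLCs. The 5 epiblast-like markers summed to 20.0 to 35.0 CPM in d6PGCLCs and 21.2 to 25.2 CPM in E12.5 PGCs, with 2 higher in d6PGCLCs and 3 in E12.5 PGCs. Of 4 endothelial and blood markers 3 were higher in d6PGCLCs, with *Ptprc* at 0 counts in E12.5 PGCs. The 4 summed to 608 to 723 CPM in d6PGCLCs against 365 to 451 CPM in E12.5 PGCs, nearly all of it *Pecam1*. The paper removed PGCs from gonads with antibodies to SSEA1 and CD31, the product of *Pecam1*. This sum therefore does not single out endothelium or blood. Among the E12.5 PGC libraries, 2 stood apart. The stress genes *Hspa1a* and *Hspa1b* summed to 325 CPM in E12.5 PGC replicate 2 and to 10.8 to 43.5 CPM in replicates 1, 3 and 4. Both genes were lower in d6PGCLCs, where they summed to 1.82 to 2.43 CPM, below every E12.5 PGC library. E12.5 PGC replicate 4 had 99 counts on Y-linked genes (0 in the other libraries). These counts, on 7 of 8 Y-linked genes and 8.94 CPM in sum, go against a pool of female cells alone. They were 99 of 11166023 counted reads, and what share of the pool they came from was not determined. The part of these differences in the results was not tested. Where the groups overlap or not depending on these libraries, both states are given. In pooled cells, fewer cells expressing a gene and less RNA per cell cannot be told apart.

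In all, 4 promoter windows are shown for the members that were lower in d6PGCLCs and have an entry in the RefSeq promoter table of GRCm38.p6, because KDM2B itself recognizes the CpG dinucleotide. Each window runs 5′ to 3′ from 250 bases before to 50 bases after an annotated start, and capitals mark every CG. The windows are chr5:122989050-122989349 and chr5:122900318-122900617 (minus strand) for the upstream and downstream starts of *Kdm2b*, chr1:151500942-151501241 (minus strand) for *Rnf2* and chrX:48341108-48341407 (plus strand) for *Bcorl1*.
Kdm2b, upstream start: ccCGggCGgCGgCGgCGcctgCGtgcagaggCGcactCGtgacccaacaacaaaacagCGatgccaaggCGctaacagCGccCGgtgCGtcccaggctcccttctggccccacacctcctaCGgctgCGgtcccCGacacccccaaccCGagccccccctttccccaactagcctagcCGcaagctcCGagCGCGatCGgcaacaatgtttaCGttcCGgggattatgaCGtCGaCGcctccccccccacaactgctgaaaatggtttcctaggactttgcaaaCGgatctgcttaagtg
Kdm2b, downstream start: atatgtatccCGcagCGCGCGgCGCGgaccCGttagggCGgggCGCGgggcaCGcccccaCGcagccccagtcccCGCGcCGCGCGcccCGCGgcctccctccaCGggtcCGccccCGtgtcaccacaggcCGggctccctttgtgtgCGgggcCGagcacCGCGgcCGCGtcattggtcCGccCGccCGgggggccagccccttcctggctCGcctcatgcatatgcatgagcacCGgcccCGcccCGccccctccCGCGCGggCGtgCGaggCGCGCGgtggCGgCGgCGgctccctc
Rnf2: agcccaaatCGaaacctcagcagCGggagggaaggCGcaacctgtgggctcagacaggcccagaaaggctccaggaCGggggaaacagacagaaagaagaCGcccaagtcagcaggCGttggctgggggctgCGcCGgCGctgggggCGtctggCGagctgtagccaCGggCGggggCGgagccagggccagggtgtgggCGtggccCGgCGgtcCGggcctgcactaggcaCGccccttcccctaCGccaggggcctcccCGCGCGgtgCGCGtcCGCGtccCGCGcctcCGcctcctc
Bcorl1: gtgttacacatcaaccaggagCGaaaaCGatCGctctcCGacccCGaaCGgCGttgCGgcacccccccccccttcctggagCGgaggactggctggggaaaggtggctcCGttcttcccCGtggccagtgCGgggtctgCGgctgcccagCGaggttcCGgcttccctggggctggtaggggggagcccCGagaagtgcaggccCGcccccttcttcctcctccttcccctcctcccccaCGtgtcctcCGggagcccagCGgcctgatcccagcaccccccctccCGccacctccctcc

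The search was for the letters CG, which read the same on both strands. Of all 32851 promoter windows of 300 bases, 94.6% held at least 1 CG, with a median of 7. The downstream start of *Kdm2b* held 47, a number reached by 1.44% of all windows, and the upstream start shown held 28, reached by 14.2%. The 2 other *Kdm2b* windows, each near a window shown, held 18 (29.7%, near the upstream start) and 49 (1.02%, near the downstream start). The counts do not separate transcripts from these starts, since reads on exons that they share were counted together. The window of *Rnf2* held 30 CG (reached by 11.7% of windows) and that of *Bcorl1* held 21 (24.8%). Among the members that were not called, *Ring1* held 37 (5.58%), *Pcgf3* held 23 (21.5%), and the 3 windows of *Pcgf5* held 34 (7.73%), 5 (62.0%) and 35 (6.95%). Of the 9 counted members, 6 had an entry (*Kdm2b* with 4 windows, of which 2 are shown), and *Rybp*, *Yaf2* and *Pcgf1* had none.

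Between d6PGCLCs and E12.5 PGCs, 5 of the 9 members were lower in d6PGCLCs (*Yaf2*, *Kdm2b*, *Bcorl1*, *Rybp* and *Rnf2*), 1 was higher (*Pcgf1*) and 3 did not pass the test (*Ring1*, *Pcgf3* and *Pcgf5*). Calls were made with edgeR's quasi-likelihood test, at a Benjamini-Hochberg adjusted p (over all genes) of at most 0.05, and SE is the standard error of the fitted log2 fold change. Over all genes 15.4% were called lower and 16.1% higher, and among the 9290 genes with a mean of at least 5 CPM, which all members reached, 25.7% were called lower and 28.3% higher. The median log2 fold change (d6PGCLC over E12.5 PGC) was -0.30 over the members and 0.01 over the genes of at least 5 CPM. Only *Yaf2* also passed a fold threshold of 1 in absolute log2 units, which 6.75% of all genes reached in the lower and 8.0% in the higher direction. The number of members called was 3 when E12.5 PGC replicate 1 or replicate 3 was left out, and 6 without both replicates 2 and 4 of the E12.5 PGCs. Over all genes it was 6919 with all libraries, and 6320 and 5978 without E12.5 PGC replicate 1 or 3. Without both replicates 2 and 4 it was 5782.

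**Figure D1:**
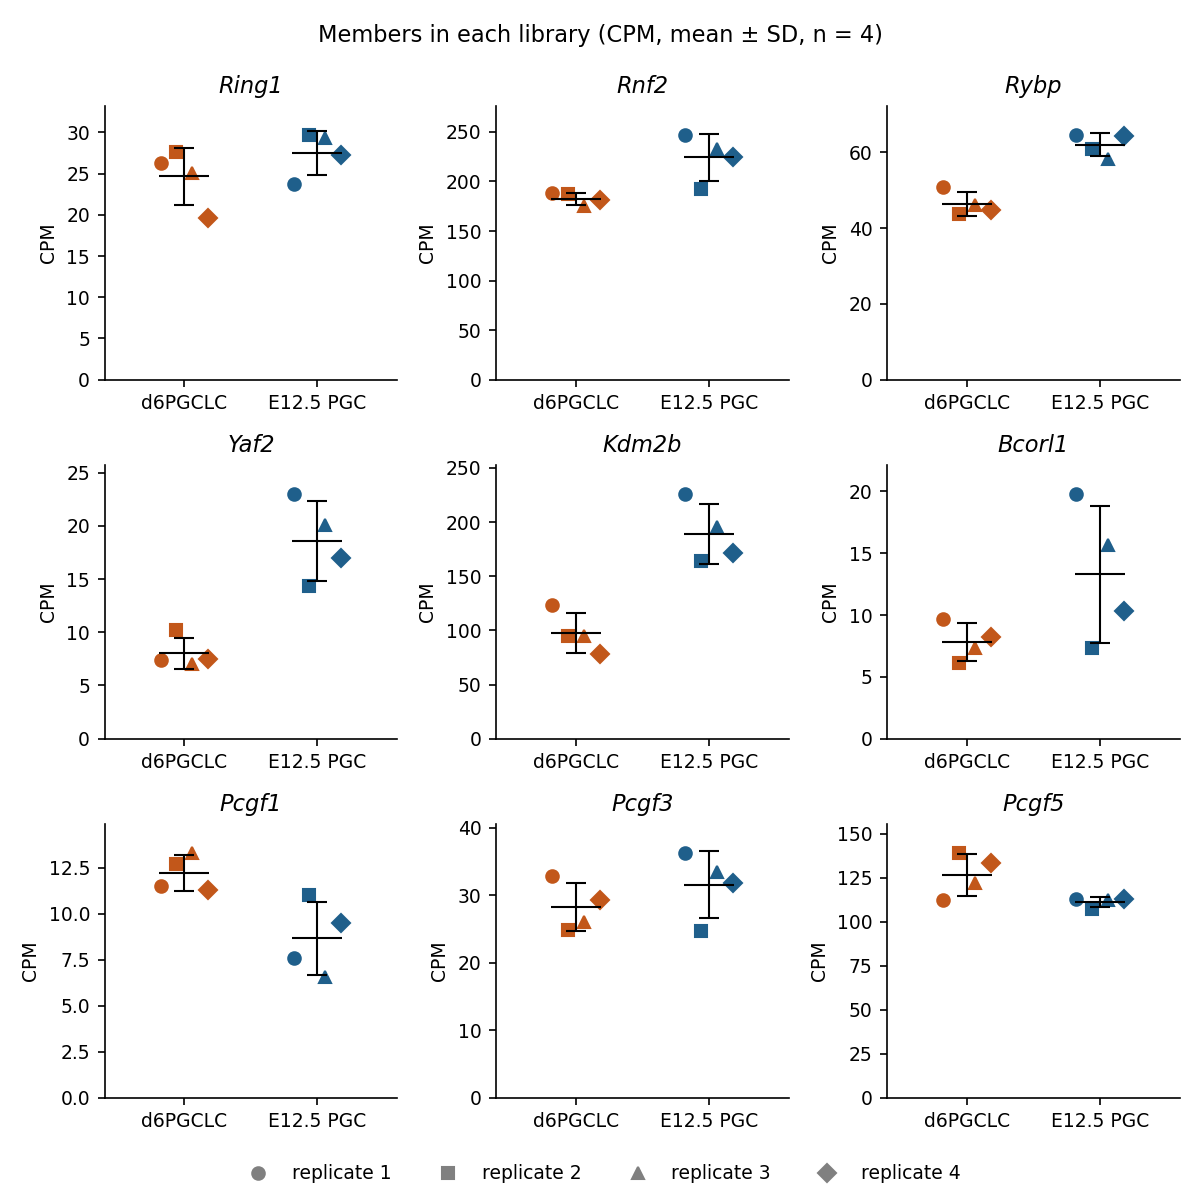
Level of each of the 9 counted members in every library, in CPM on linear axes that start at 0, by group, with a symbol for each replicate number and bars for mean ± SD (n = 4). With TMM scaling the groups are apart for *Rnf2*, *Rybp*, *Yaf2*, *Kdm2b* and *Pcgf1* and overlap for *Ring1*, *Bcorl1*, *Pcgf3* and *Pcgf5*.

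The d6PGCLC and E12.5 PGC libraries were fully apart for 4 members that were lower in d6PGCLCs (14.8% of all genes) and for 1 that was higher (15.4%). Only *Pcgf1* among these 5 overlapped with scaling by library size or by upper quartile. For the members whose groups overlapped, the two-sided exact permutation test over the 8 libraries gave p = 0.0857 for *Pcgf5*, 0.114 for *Bcorl1*, 0.286 for *Ring1* and 0.343 for *Pcgf3*, while full separation of 4 against 4 libraries by itself fixes this p at its smallest value, 0.0286.

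Of the pair of catalytic RING genes, *Rnf2* carried most of the reads. *Rnf2* (Entrez 19821, chromosome 1, 151469398 to 151500991, the RefSeq gene span in GRCm38) was at 188, 187, 175 and 181 CPM in d6PGCLC replicates 1 to 4, and at 247, 192, 233 and 225 CPM in the E12.5 PGC replicates. The d6PGCLC libraries lay close together, while E12.5 PGC replicate 2 was only just above them. Its means were 183 ± 6.26 and 224 ± 23.4 CPM (SD, n = 4), and its log2 fold change was -0.30 (SE 0.09, 95% interval -0.49 to -0.11, edgeR adjusted p = 0.0157). The adjusted p rose to 0.0638 without E12.5 PGC replicate 1 and to 0.0633 without replicate 3. *Ring1* (Entrez 19763, chromosome 17, 34020792 to 34024680) was at 26.3, 27.6, 25.1 and 19.6 CPM in d6PGCLCs and at 23.8, 29.7, 29.3 and 27.3 CPM in E12.5 PGCs. These groups overlapped. Its log2 fold change of -0.16 had a 95% interval from -0.45 to 0.14 and edgeR gave an adjusted p of 0.517.

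Counted per kilobase of exon, *Rnf2* stood at 4.89 times the level of *Ring1* in d6PGCLCs (range 4.45 to 6.03 over 4 libraries, geometric mean) and 5.34 times in E12.5 PGCs (4.24 to 6.79). This ratio is free of library size, and the groups overlapped, with a log2 difference of -0.13 (SE 0.17), and with single libraries left out it ranged from -0.24 (without E12.5 PGC replicate 2, where they still overlapped) to -0.01 (without E12.5 PGC replicate 1). The summed per-length level of both genes was 62.4 ± 2.78 CPM per kb in d6PGCLCs and 75.4 ± 5.84 CPM per kb in E12.5 PGCs, so that the RING core transcripts of d6PGCLCs stood at 82.8% of the E12.5 PGC level.

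*Rybp* and *Yaf2* encode the alternative adaptors that mark variant PRC1 and bind RING proteins. Both were lower in d6PGCLCs, with the larger fitted change in *Yaf2*. *Yaf2* (Entrez 67057, chromosome 15, 93283833 to 93336935) was at 7.40, 10.2, 7.05 and 7.52 CPM in d6PGCLCs and at 23.0, 14.3, 20.1 and 17.0 CPM in E12.5 PGCs. Replicate 2 was the highest of the d6PGCLC libraries and the lowest of the E12.5 PGC libraries, yet the groups were apart. The counts behind these values ranged from 58 to 100 in d6PGCLCs and from 136 to 218 in E12.5 PGCs, and the log2 fold change was -1.20 (SE 0.19, 95% interval -1.59 to -0.82, edgeR adjusted p = 2.31e-05), a level of 43.4% in d6PGCLCs. Dropping any single library moved it no further than -1.35 or -1.09.

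*Rybp* (Entrez 56353, chromosome 6, 100228565 to 100287358) was at 50.8, 43.6, 46.0 and 44.7 CPM in d6PGCLCs and at 64.6, 60.9, 58.2 and 64.2 CPM in E12.5 PGCs. The spread within each group was small (coefficient of variation 6.86% and 4.87%), not far above the 4.78% and 4.05% that counting alone gives. Its log2 fold change of -0.42 (SE 0.11, edgeR adjusted p = 0.00333) corresponded to 74.6% of the E12.5 PGC level, and the adjusted p stayed at 0.0168 or less with each library left out.

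Per kilobase of exon, *Rybp* was 3.78, 2.36, 3.59 and 3.27 times the level of *Yaf2* in d6PGCLC replicates 1 to 4, and 1.55, 2.34, 1.59 and 2.08 times in the E12.5 PGC replicates. The lowest d6PGCLC ratio was hardly above the highest E12.5 PGC ratio, both in replicate 2, and the others were further apart. The mean log2 ratio differed by 0.78 (SE 0.21), and dropping any single library gave 0.69 to 0.93. The summed level of this pair was 13.3 ± 0.610 CPM per kb in d6PGCLCs against 20.9 ± 1.75 CPM per kb in E12.5 PGCs, or 63.6%.

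**Figure D2:**
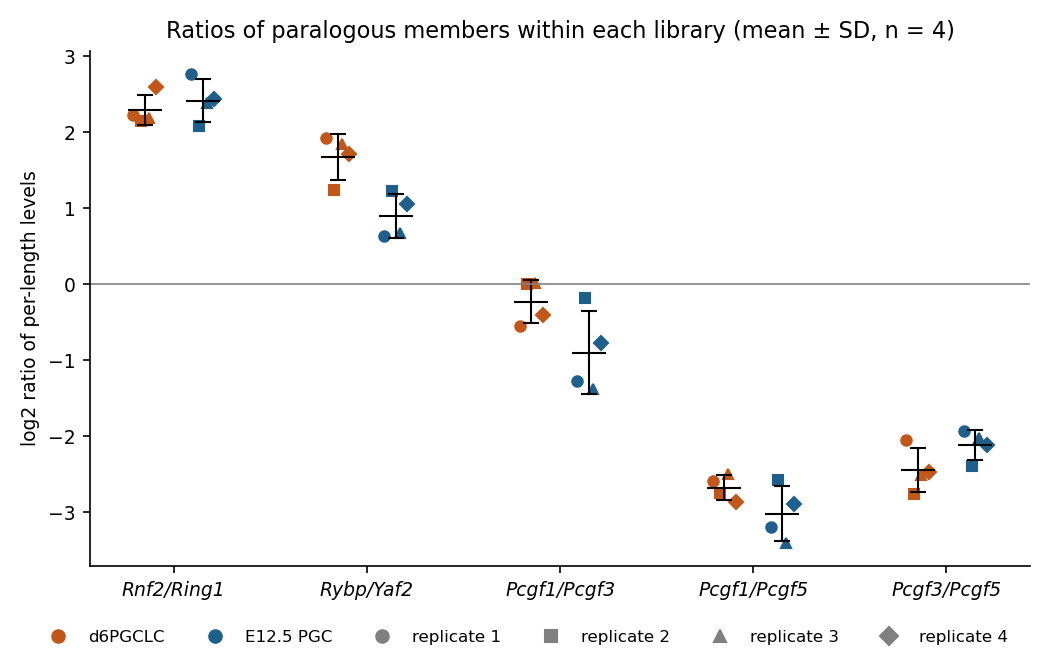
Ratio of per-length levels of paralogous members within each library, on a log2 axis where 0 means equal levels, with replicate symbols and mean ± SD (n = 4). With all libraries, the groups are apart for 1 of these 5 ratios, *Rybp*/*Yaf2*, with geometric means of 3.20 in d6PGCLCs and 1.86 in E12.5 PGCs, and without E12.5 PGC replicate 2 they are apart for 3.

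The genes of the PCGF1 complex moved in different directions. *Kdm2b* (Entrez 30841, chromosome 5, 122870664 to 122989270) was at 123, 95.2, 94.9 and 78.4 CPM in d6PGCLCs and at 226, 164, 195 and 171 CPM in E12.5 PGCs. The lowest E12.5 PGC library was well above the highest d6PGCLC library. With 647 counts or more in every library, its coefficients of variation of 18.9% in d6PGCLCs and 14.8% in E12.5 PGCs were far above the 3.29% and 2.33% of counting alone. Its log2 fold change was -0.95 (SE 0.12, 95% interval -1.21 to -0.69, edgeR adjusted p = 2.85e-06), so that d6PGCLCs held 51.8% of the E12.5 PGC level. It went past the fold threshold without d6PGCLC replicate 1 (-1.07) or without E12.5 PGC replicate 2 (-1.01), and was -1.11 without both replicates 2 and 4 of the E12.5 PGCs. In the other direction, it was -0.85 without E12.5 PGC replicate 1 and -0.86 without d6PGCLC replicate 4.

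*Pcgf1* (Entrez 69837, chromosome 6, 83077552 to 83080855), which gives this complex its identity, was at 11.5, 12.7, 13.3 and 11.3 CPM in d6PGCLCs and at 7.61, 11.0, 6.55 and 9.48 CPM in E12.5 PGCs. The d6PGCLC libraries were all higher, with E12.5 PGC replicate 2 just below them. The log2 fold change was 0.49 (SE 0.19, 95% interval 0.10 to 0.88), and edgeR's adjusted p of 0.0493 lay at the threshold. It was 0.0816 with scaling by library size alone, 0.0553 with RLE, 0.0699 with upper quartile scaling and 0.0823 with a correction for exonic length. Without d6PGCLC replicate 2, 3 or 4 it was 0.0985, 0.127 and 0.0574, and without E12.5 PGC replicate 1, 3 or 4 it was 0.119, 0.211 and 0.0683. The direction was the same throughout, and without both E12.5 PGC replicates 2 and 4 the log2 fold change was 0.79 (edgeR adjusted p = 0.0141).

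*Bcorl1* (Entrez 320376, X chromosome, 48341358 to 48408068) encodes the alternative to the corepressor BCOR. It was at 9.70, 6.11, 7.30 and 8.24 CPM in d6PGCLCs and at 19.8, 7.37, 15.7 and 10.3 CPM in E12.5 PGCs. The E12.5 PGC libraries were spread widely, replicate 2 fell inside the d6PGCLC range (the other 3 lay above it), and their coefficient of variation of 41.8% was far above the 8.83% of counting. The log2 fold change was -0.76 (SE 0.25, 95% interval -1.28 to -0.25, edgeR adjusted p = 0.0210). It was -0.66 without d6PGCLC replicate 2 (edgeR adjusted p = 0.0689). Without E12.5 PGC replicate 1 it was -0.51 (adjusted p = 0.119) and without E12.5 PGC replicate 3 it was -0.67 (adjusted p = 0.0732). Without both E12.5 PGC replicates 2 and 4, in contrast, the log2 fold change was -1.18 (adjusted p = 0.000206). As the gene is X-linked, the 431 X-linked genes with a mean of at least 1 CPM are given beside it, with a median log2 fold change of -0.07 against 0.01 for 11037 autosomal genes.

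*Pcgf3* and *Pcgf5* define the other pair of variant complexes described here, which act without KDM2B. Neither passed the test. *Pcgf5* (Entrez 76073, chromosome 19, 36348329 to 36460970) was at 112, 139, 122 and 133 CPM in d6PGCLCs and at 113, 107, 112 and 113 CPM in E12.5 PGCs. The E12.5 PGC libraries were nearly equal, and 3 of the 4 d6PGCLC libraries lay above them. Its log2 fold change of 0.18 had a 95% interval from -0.01 to 0.38 (edgeR adjusted p = 0.164) and passed without d6PGCLC replicate 1 (0.24, adjusted p = 0.0452). *Pcgf3* (Entrez 69587, chromosome 5, 108461259 to 108506976) was at 32.9, 24.9, 26.0 and 29.3 CPM in d6PGCLCs and at 36.3, 24.7, 33.5 and 31.8 CPM in E12.5 PGCs. The groups overlapped over most of their range, though not without both E12.5 PGC replicates 2 and 4, and its log2 fold change of -0.16 had a 95% interval from -0.46 to 0.14 (edgeR adjusted p = 0.515). Within libraries, the per-length ratio of *Pcgf1* to *Pcgf3* was 0.686 to 1.01 in d6PGCLCs and 0.385 to 0.879 in E12.5 PGCs, that of *Pcgf1* to *Pcgf5* was 0.137 to 0.177 and 0.0947 to 0.167, and that of *Pcgf3* to *Pcgf5* was 0.148 to 0.242 and 0.190 to 0.263. The groups overlapped for each of these ratios. Without E12.5 PGC replicate 2 the highest E12.5 PGC ratio was 0.587 for *Pcgf1* to *Pcgf3* and 0.135 for *Pcgf1* to *Pcgf5*, below every d6PGCLC library. Without replicate 4 as well, the ratio of *Pcgf3* to *Pcgf5* was also apart, at 0.246 to 0.263 in the E12.5 PGCs left.

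**Figure D3:**
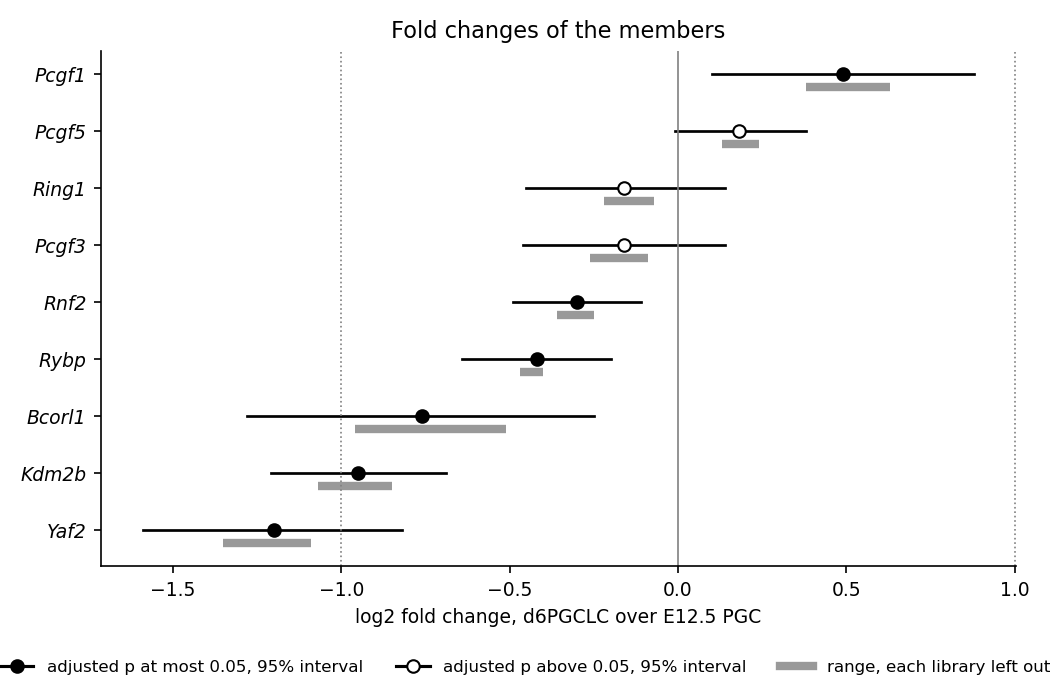
Log2 fold change of each member (d6PGCLC over E12.5 PGC) as points, filled where the adjusted p was at most 0.05, with 95% intervals as black lines and the range with each library left out as grey bars. Dotted lines mark an absolute log2 fold change of 1. *Yaf2* at -1.20 is the only point beyond them, and the intervals of *Yaf2*, *Kdm2b* and *Bcorl1* cross the lower one.

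Each PRC1 holds 1 PCGF protein, so the 6 PCGF genes were also compared as shares of their summed per-length level in each library. *Pcgf5* took 28.7% ± 2.84 in d6PGCLCs and 26.4% ± 0.989 in E12.5 PGCs (SD, n = 4). *Pcgf3* took 5.29% ± 0.674 and 6.15% ± 0.863, and *Pcgf1* took 4.48% ± 0.363 and 3.33% ± 0.803. Shares of CPM, without division by length, were 2.22% and 1.55% for *Pcgf1*, which has the shortest counted length of the members. For *Pcgf1*, *Pcgf3* and *Pcgf5* the groups overlapped in their per-length shares. Without E12.5 PGC replicate 2 they were apart for *Pcgf1* (4.10% to 4.83% against 2.59% to 3.68%) and *Pcgf3* (4.74% to 6.19% against 6.27% to 6.73%), but not for *Pcgf5*. Summed, these 3 variant PCGF genes among the members made up 36.0% to 41.5% in d6PGCLCs and 34.9% to 37.1% in E12.5 PGCs, also overlapping. Their summed level itself was 80.2 to 91.4 CPM per kb in d6PGCLCs and 73.8 to 79.1 CPM per kb in E12.5 PGCs. These ranges were apart with TMM or RLE scaling but overlapped with scaling by library size (78.0 to 89.6 against 76.7 to 79.4) or by upper quartile (80.3 to 89.2 against 75.1 to 81.4). The largest difference in share among the 6 was that of *Bmi1*, a PCGF gene of canonical PRC1, with 1.38% ± 0.246 against 11.2% ± 1.02 (2.23% and 17.1% as shares of CPM). *Pcgf2*, its paralog in canonical PRC1, took 36.8% ± 2.26 and 32.5% ± 2.05 (apart only without E12.5 PGC replicate 2). *Pcgf6*, the PCGF gene of the variant complex PRC1.6 and not among the members, took 23.3% ± 0.914 and 20.5% ± 1.05. Its groups were apart, at 22.5% to 24.6% in d6PGCLCs and 19.5% to 21.9% in E12.5 PGCs. A share falls or rises also when another gene of the sum changes, and these are shares of transcript, not of complexes.

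**Figure D4:**
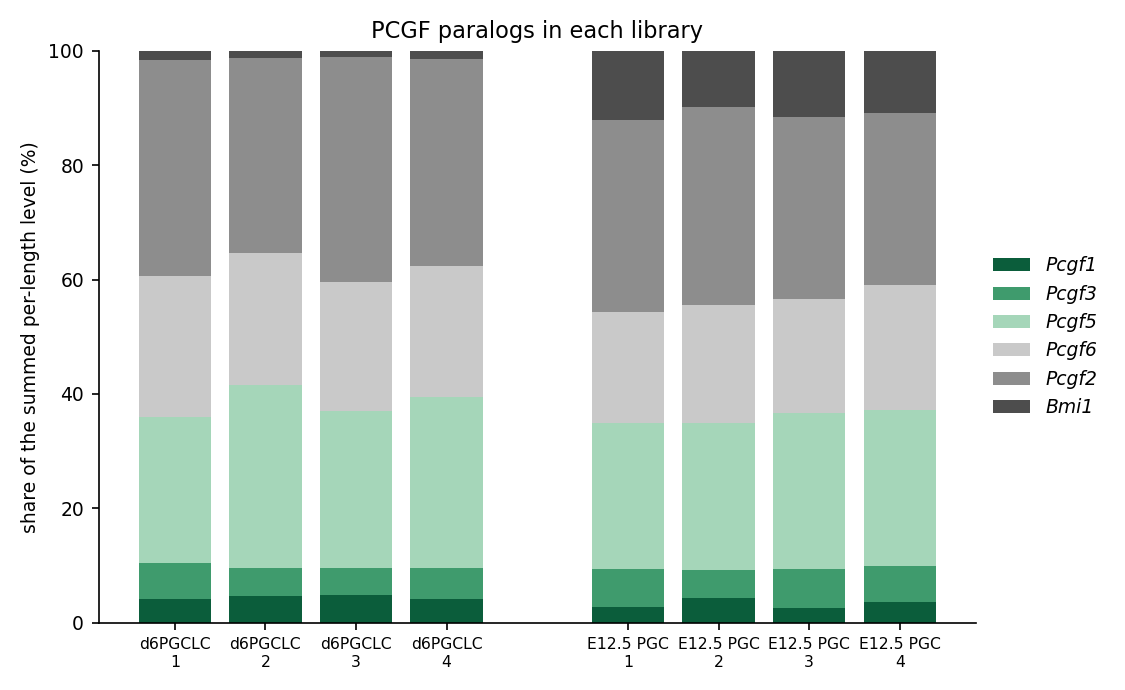
Share of each PCGF gene in the summed per-length level of the 6 genes, as stacked bars that reach 100% in each of the 8 libraries. Green parts are the variant PCGF genes among the members, *Pcgf1*, *Pcgf3* and *Pcgf5* (*Pcgf6* of PRC1.6 is not a member). Together they make up 36.0% to 41.5% in d6PGCLCs and 34.9% to 37.1% in E12.5 PGCs. *Bmi1* at the top is 1.09% to 1.68% and 9.81% to 12.2%.

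In order of level per kilobase, *Pcgf5* (64.3 ± 6.10 CPM per kb) came first in d6PGCLCs, followed by *Rnf2* (51.8 ± 1.77) and *Kdm2b* (24.5 ± 4.63), with no overlap between neighbours. *Pcgf3*, *Ring1*, *Rybp* and *Pcgf1* followed at mean levels of 11.8 CPM per kb and below, where each overlapped the next. *Yaf2* (3.19 ± 0.573) and *Bcorl1* (1.17 ± 0.226) were last and apart from the others. In E12.5 PGCs *Rnf2* (63.5 ± 6.64), *Pcgf5* (56.6 ± 1.55) and *Kdm2b* (47.2 ± 7.01) were the highest and each overlapped the next. *Rybp*, *Pcgf3* and *Ring1* lay between 13.5 and 11.9 CPM per kb and overlapped likewise, as did *Yaf2* (7.38 ± 1.49) and *Pcgf1* (7.14 ± 1.64), and *Bcorl1* (1.98 ± 0.826) was lowest. Without E12.5 PGC replicate 2, *Rnf2* (63.8 to 69.9), *Pcgf5* (56.9 to 57.7) and *Kdm2b* (42.6 to 56.5) were apart, as were *Pcgf3* and *Ring1*, and without replicate 4 as well, so were *Yaf2* and *Pcgf1*. These levels rest on the length of the isoform the authors counted. For *Pcgf3* and *Pcgf5* this was 2389 and 1966 bp, whereas the longest coding transcripts in GENCODE M21 have 7708 and 6443 bp, so that reads on their other exons were not counted. *Kdm2b* and *Bcorl1* were also counted on less than their longest coding transcript, at 4000 against 5180 bp and 6725 against 7446 bp. The other members were counted on more, with *Yaf2* at 2518 against 1676 bp. Ratios and ranks per kilobase share this limit.

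**Figure D5:**
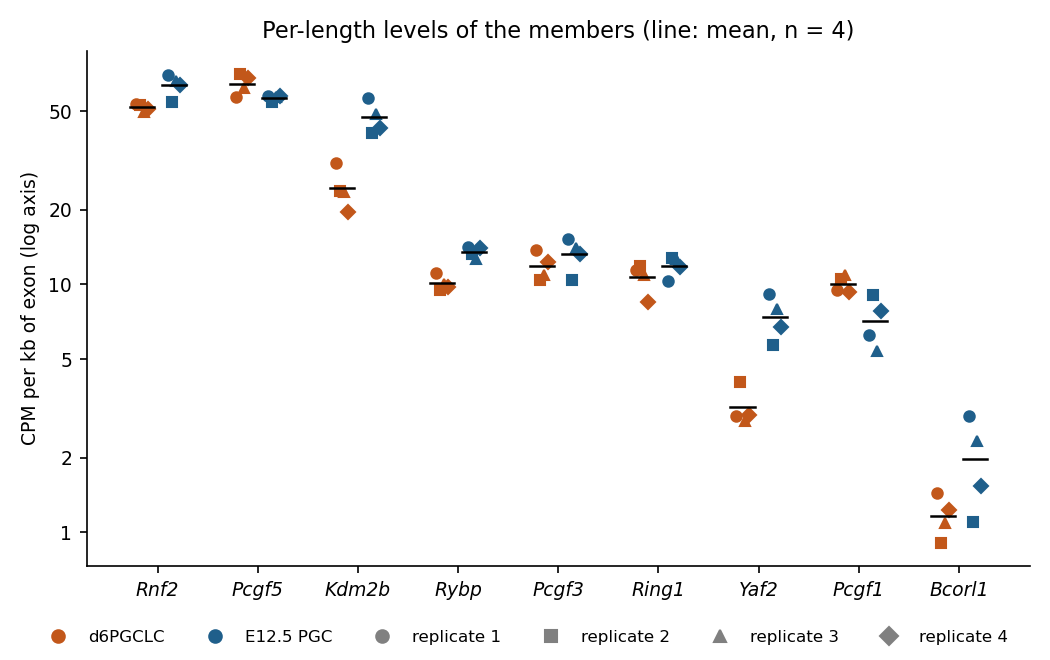
Per-length level of each member in every library (CPM per kb of exon, log axis), with replicate symbols and the group mean as a line, ordered by the E12.5 PGC mean. *Rnf2*, *Pcgf5* and *Kdm2b* stand above the other members in both groups, and *Bcorl1* is lowest at 1.17 and 1.98 CPM per kb.

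Across the 6 called members, E12.5 PGC replicate 2 was the E12.5 PGC library closest to the d6PGCLC mean for 5 (all but *Rybp*), and replicate 1 was the farthest for 5 (all but *Pcgf1*). Over all 6919 called genes (distances on log2 of CPM plus 0.5), the same libraries were the most frequent, with replicate 2 closest for 40.2% and replicate 1 farthest for 43.1%, so both libraries held these places beyond the members too. For *Bcorl1* the log2 distance to the d6PGCLC mean was 0.07 in replicate 2 and 1.36 in replicate 1, and for *Rnf2* it was 0.07 and 0.43. Replicate 2 was also the library with the highest level of *Hspa1a* and *Hspa1b*, and whether this has a part in its position was not tested.

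The genes around these complexes were described with the same fit, from lists written with earlier results of these data known. Their counts stand beside 16.1% called higher and 15.4% lower over all genes, and 28.3% and 25.7% over the genes of at least 5 CPM. Of 18 other partners of variant PRC1 in the table, 3 were higher, 6 were lower and 9 did not pass, with a median log2 fold change of -0.08. Among them *Auts2*, a partner of the PCGF3 and PCGF5 complexes, fell most (-1.34, SE 0.15) and *Max*, a DNA-binding partner in PRC1.6, rose most (0.53, SE 0.08). Of 11 canonical PRC1 genes 5 were higher and 4 lower (median -0.13), from *Bmi1* at -2.97 (SE 0.14) to *Cbx6*, a CBX reader gene, at 1.08 (SE 0.15). For removal of H2AK119 ubiquitin, 2 of 8 genes were higher and 4 lower (median -0.24), with *Foxk1* at 0.76 (SE 0.11) and *Asxl3* at -1.55 (SE 0.39, and under 3 CPM in either group). Of 10 PRC2 genes 6 were higher and 0 lower by edgeR's quasi-likelihood test (median 0.33; lower were also 0 at an unadjusted p under 0.05 and 0 by DESeq2), with *Epop*, a PRC2 accessory gene, at 1.45 (SE 0.12). Without d6PGCLC replicate 1 it was 7 higher and 1 lower, the latter being *Ezh1*, a catalytic PRC2 gene named after its values were seen (-0.32, edgeR adjusted p = 0.0266, against -0.19 and 0.281 with all libraries). Differences between these lists and the members were not tested.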

How the data were processed

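Bulk poly(A) RNA-seq of 4 d6PGCLC and 4 E12.5 PGC libraries was used as deposited. The authors mapped the single-end reads to GRCm38 plus ERCC spike-ins with STAR, picked an isoform per gene at random, kept a random gene of each set whose promoters overlap, and deposited raw counts of uniquely mapped reads on the exons, with the exonic length. Use of strand in counting is not given in the sources used here, and loss of non-unique reads can lower genes with near-identical copies. Counted reads were 7991437 to 12024841 per library. At this depth 3 counts equal 0.249 to 0.375 CPM, and counting error is all that such limits cover. Library pairs of a group differed by more than counting noise (chi-square at least 3.19 times its degrees of freedom).

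Of 21950 Entrez identifiers, 21907 had a symbol in the RefSeq annotation of GRCm38.p6. Counts were scaled with TMM and fitted across all genes with edgeR 4.0.16 in R 4.3.3 (estimateDisp, glmQLFit and glmQLFTest, cell type as the only term, no filter on low counts, prior count 0.125), with Benjamini-Hochberg adjustment. Intervals use the fit's standard error and its t quantile. Ratios and shares used counts per exonic length. Steps were tested on simulated counts. Alternatives were other scalings, 2 filters, a likelihood ratio test, DESeq2 1.42.0, a replicate block, a length offset (loess, span 0.5) and leaving out each library. The text names all members, the other PCGF genes, the extreme called genes of each list, and *Ezh1*. Marker genes are given as sums, with *Pecam1* and *Ptprc* also named. *Hspa1a*, *Hspa1b* and Y-linked genes were chosen after the values were seen. The members and lists were chosen with earlier results of these data known. The ratio of *Bcor* to *Bcorl1* could not be made, since *Bcor* was not analysed here.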

Additional observations from a re-analysis of the deposited data

Results flagged for a closer look

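In 40 sets of 4 libraries (levels of the 9 members, 5 ratios and 6 PCGF shares in each group), 2 had a library far from the others by Dixon's criterion, and chance flags about 2.0 of 40. *Yaf2* was at 10.2 CPM in d6PGCLC replicate 2, against 7.05 to 7.52 CPM in the other d6PGCLC libraries, and its log2 fold change was -1.35 without that library. The per-length ratio of *Rnf2* to *Ring1* was 6.03 in d6PGCLC replicate 4, against 4.45 to 4.69 in the others, and the log2 difference between the groups was -0.23 without it.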

How the results depend on the processing

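Of 162 member fold changes under 18 alternatives, 146 kept their direction and side of the threshold, 15 lost the call (10 of *Pcgf1*, 3 of *Bcorl1* and 2 of *Rnf2*), 1 gained it (*Pcgf5*) and 0 changed sign. With each library left out, 3 to 7 members and 5978 to 7066 of all genes were called. With the fold threshold it was 1 to 2 members and 2973 to 3158 genes, against 3237 genes with all libraries. Without both E12.5 PGC replicates 2 and 4, a setting chosen after seeing the data, 3 members and 3019 genes passed that threshold. Whether equal replicate numbers pair the libraries cannot be decided from these few correlations. Same-numbered libraries deviated together with correlations from -0.0224 to 0.272, and 2 of 4 pairs were above 0.1. Differently numbered libraries ranged from -0.176 to 0.113. A replicate block gave 6 members called and 7270 genes against 6919. The groups were apart for 5 members, and for 4 with library size or upper quartile scaling (*Pcgf1* then overlapped). They were apart for 7 without both E12.5 PGC replicates 2 and 4. Over all genes, with all libraries and TMM scaling, they were apart for 14.8% (lower) and 15.4% (higher). This share was not computed for the other settings. Of the 5 ratios, 1 had groups apart, 3 without E12.5 PGC replicate 2 and 4 without both, and of the 6 PCGF shares it was 2, then 5 in either case. Of the neighbours in the E12.5 PGC order by per-length level, 3 were apart, 6 without replicate 2 and 7 without both. These settings were also chosen after seeing the data. Leaving out a library can only narrow the range of its group, so such numbers can rise but not fall. A rise in them is therefore not read as clearer separation. No matching number was computed for ratios, shares or neighbours of other genes. Shares of CPM in place of per-length shares were 2.22% and 1.55% for *Pcgf1* in d6PGCLCs and E12.5 PGCs, 43.8% and 36.3% for *Pcgf2*, 2.23% and 17.1% for *Bmi1*, and 23.0% and 19.9% for *Pcgf5*, because exonic lengths differ. Low counts limit *Yaf2*, *Pcgf1* and *Bcorl1* most, with 58, 61 and 60 counts in their lowest libraries.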
